A study of Mus musculus with 28 samples.

Results

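Liver RNA of 10 mice given an acyclic nucleoside phosphonate was compared with liver RNA of saline-treated mice, with both drugs taken as one class. These animals were all those titled adefovir dipivoxil (5 mice) or tenofovir disoproxil (5 mice), out of 14 animals profiled singly in the series, and they account for 20 of its 28 arrays. All were female C57BL/6 mice aged 8 to 10 weeks. Each drug was injected intraperitoneally at 25 mg/kg on 3 days, and the liver was sampled on day 4, which was 24 hours past the final dose. The saline animals received 200 µl of 0.9% saline, and their RNA was hybridised as one pool in the other channel of every array. The sample labels give 10 animals in that pool and the treatment protocol gives 5. The remaining 4 animals of the series received phenobarbital at 60 mg/kg, plus 80 mg/kg β-naphthoflavone once, within 3 days of treatment. Their livers were likewise sampled on day 4, 24 hours past the final dose. They serve here only to show where the antivirals differed from them.

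Every antiviral animal was hybridised in both dye orientations, and its value was the mean log2 ratio of treated animal over saline pool. A ratio of 0 stands for equal RNA in both, and a negative ratio for less RNA in the treated liver. The saline pool counts as 1 control sample, so a test of the 10 animals against 0 leaves out the spread among saline animals. Nothing in the labels gives the molar doses, which differ where compounds of unequal mass are dosed by weight.

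Adefovir and tenofovir are analogues of adenine nucleotides in which an open chain replaces the sugar and a phosphonate the phosphate. Inside cells they are phosphorylated and end growing DNA chains made by viral polymerases, which is why they are used against hepatitis B and, for tenofovir, HIV. Tenofovir carries a methyl group on its chain that adefovir lacks. The ester groups that carry the drugs into cells also differ, pivaloyloxymethyl in adefovir dipivoxil and isopropoxycarbonyloxymethyl in tenofovir disoproxil. In the liver, cytochrome P450 enzymes oxidise drugs, retinoids, steroids and sterols. Nuclear receptors and the aryl hydrocarbon receptor set the level of many of these enzymes, and the sterol-sensing SREBP and SCAP system sets that of the genes of cholesterol synthesis.

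The array carried 120 gene probes with 3 spots each. Of these, 110 were named by the platform annotation, for 108 genes, and 10 were counted without being named. Signal exceeded background in 1 or both channels for 71 probes on most of the 20 arrays, and for 31 probes on no array. Per array, 30 to 88 probes were above background in the treated channel and 38 to 78 in the saline channel. All 8 hepatocyte markers on the array were above background on most arrays (Apoa1, Cyp2e1 and Hnf4a among them). Of the markers listed for Kupffer, stellate, endothelial and bile duct cells and lymphocytes, the array carried a probe for Slc10a2 alone, a bile duct marker that was above background on 0 of 20 arrays. Whole tissue was measured, so fewer cells of a type and less RNA per cell cannot be told apart. Over the 120 probes, the 2 arrays of an animal correlated at -0.11 to 0.68, and at 0.34 to 0.82 once the mean dye effect of each probe was removed.

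Over the 10 animals, 14 of 120 probes passed a Benjamini-Hochberg adjusted p of 0.05 in limma's test, and 35 had an unadjusted p under 0.05. Lower after the antivirals were 8 probes, 6.67% of those tested, and higher were 6, or 5%. The lower probes were Cyp26a1, Acss2, Cyp17a1, Cyp1a2, Fdps, Slc10a1, Dhcr7 and Cyp1a1. The higher ones were Cyp2a4, Abcg8, Cyp2a12, Scap, Soat1 and 1 of 3 Gapdh probes. For all 14, the adefovir mean and the tenofovir mean lay on the same side of 0, as they did for 91 of all 120 probes. All 10 animals had the sign of the mean for 5 of the 14 probes (Cyp26a1, Cyp2a4, Cyp2a12, Cyp1a1 and Scap), at least 9 did for 12, and at least 8 for all 14. Over all 120 probes, all 10 animals did for 5 and at least 9 for 20. The 14 were picked by a test of these same animals, which favours such agreement. Of the 14 probes, 11 were above background on most arrays, and Dhcr7, Cyp1a1 and Soat1 were not. By an exact two-sided sign-flip test over the same animals, the 5 probes with 10 animals of one sign passed (adjusted p = 0.0469 each, from the smallest p that 10 animals can give, 0.00195), and no other probe did. The split depended on the scaling. It was 3 lower and 54 higher with centring on the calibration spots, 6 and 57 on the luciferase spots, 5 and 5 on the median of all gene spots, and 4 and 0 on Actb, Gapdh and Ppia. By gene list, the calls of higher RNA with calibration and luciferase centring reached 8 and 8 of 32 for P450 genes, 2 and 2 of 19 for cholesterol synthesis, and 7 and 8 of 13 for transporters. They reached 6 and 6 of 8 for sterol regulation, 5 and 5 of 6 for retinoid handling and receptors, and 5 and 5 of 7 for steroid synthesis.

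**Figure D1:**
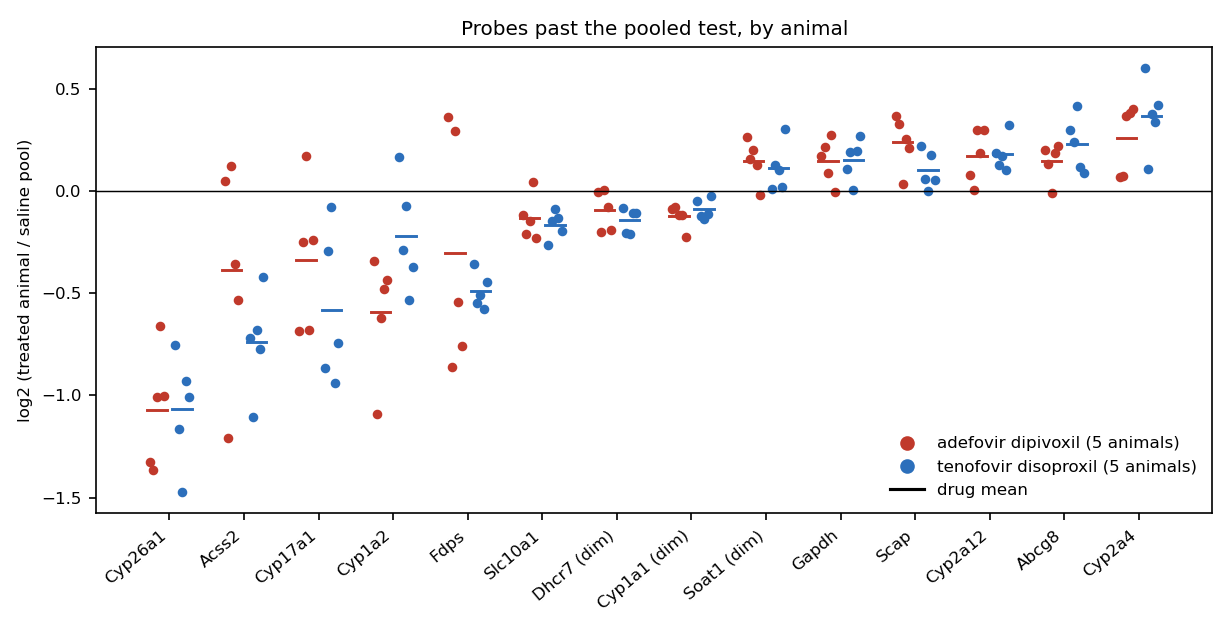
Log2 ratio of treated animal over saline pool for the 14 probes past the pooled test, ordered by their mean; each point is 1 animal (adefovir dipivoxil left, tenofovir disoproxil right, 5 each) and each short bar a drug mean. Cyp26a1 lies below 0 in all 10 animals, whereas Acss2 and Fdps lie above 0 in 2 adefovir animals; "dim" marks probes above background on fewer than 11 of 20 arrays.

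Cyp26a1, the hydroxylase that clears retinoic acid, was the probe that moved most. The log2 ratios of the 5 adefovir animals were -1.32, -1.37, -1.01, -0.66 and -1.002. Those of the 5 tenofovir animals were -0.75, -1.17, -1.47, -0.93 and -1.01. All 10 animals lay well below the saline pool, and the values of the 2 drugs overlapped. The pooled ratio fell by 1.07 on the log2 scale (SD 0.264, n = 10, 95% interval -1.23 to -0.90, limma adjusted p = 9.77e-07). The adefovir mean was -1.07 and the tenofovir mean -1.07, with a difference of -0.01 (95% interval -0.35 to 0.34). The saline channel was above background on 18 of 20 arrays but the treated channel on 3 of 20. In Cy3, background-subtracted Cyp26a1 intensity had a median of 26.8 units (-3.67 to 182) in treated RNA and 258.5 units (158 to 414) in saline RNA, on 10 arrays each. The treated level was thus mostly not measured, and the interval above does not bound the difference between the drugs in Cyp26a1 RNA. The size of the fall also depends on how background is handled, and it was -3.24 with plain subtraction of the local background.

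Cyp26a1 is a classic target of the retinoic acid receptors, and its promoter is shown because the gene was lower in every animal. RefSeq's sequence of assembly GRCm38.p6 gives the following 300 bases on the plus strand at chr19:37697558-37697857, from 250 bases before the start of transcription to 50 after it. Capitals mark a pair of AGTTCA half-sites read from the minus strand, spaced by 5 bases.

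Cyp26a1: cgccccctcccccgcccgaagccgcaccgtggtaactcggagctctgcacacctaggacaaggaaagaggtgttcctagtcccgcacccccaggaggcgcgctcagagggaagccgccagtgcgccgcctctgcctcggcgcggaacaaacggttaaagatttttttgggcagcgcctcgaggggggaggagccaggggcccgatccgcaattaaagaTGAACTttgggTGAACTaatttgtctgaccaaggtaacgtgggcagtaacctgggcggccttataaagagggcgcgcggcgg

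The pair spans positions -32 to -16 relative to the start. A pair of AGTTCA half-sites in the same orientation with any 5 bases between them, searched on both strands, was found in 8 of 32851 such promoter windows of the RefSeq table (0.0244%), and AGTTCA on either strand in 4597 of them (14%). Of the 108 named genes on the array, 88 had a window, and Cyp26a1 alone held the pair. Only this spelling of the half-site, the one in the Cyp26a1 promoter, and this spacing were searched for pairs. The counts thus do not show that other genes lack pairs of another spelling or spacing. A match of letters is a description and not a measured binding site. The retinoid receptors themselves gave no call. Rarg and Rxra had pooled log2 ratios of 0.04 and 0.03 and were above background in at least 1 channel on 0 and 7 arrays. The list of retinoid handling and receptors held 6 measured genes, Cyp26a1 and the receptors Rara, Rarg, Rxra, Rxrb and Rxrg. Of these 6, 2 were above background on most arrays. In this list 1 was lower (Cyp26a1) and 0 were higher, beside 6.67% and 5% of all 120 probes. The list median was 0.03 against 0.01 for all 120 probes.

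Cyp1a2, which oxidises caffeine and many aromatic amines and is induced through the aryl hydrocarbon receptor, was lower in 9 of 10 animals. The adefovir animals had log2 ratios of -0.34, -1.09, -0.62, -0.48 and -0.43, and the tenofovir animals 0.17, -0.29, -0.07, -0.53 and -0.37. Every adefovir animal was below 0, and the 2 highest values were those of tenofovir animals. The pooled ratio fell by 0.41 (SD 0.333, n = 10, 95% interval -0.61 to -0.20, limma adjusted p = 0.0116), or 1.33-fold lower. It missed the threshold with centring on the calibration spots (-0.27, limma adjusted p = 0.0551), in the authors' series table (-0.30, limma adjusted p = 0.177) and by the exact sign-flip test (adjusted p = 0.0586). Cyp1a1, the other measured target of that receptor, also passed (-0.11, limma adjusted p = 0.0116), yet it was not well above background in either channel on any of 20 arrays, so no fold is given. Its sign turned with centring on the calibration spots (0.17) or the luciferase spots (0.13), neither of which gave a call. The Cyp1a1 call held under 8 of 15 alternatives. It was also lost without background correction, with centring on the median or the reference genes, in Cy3 alone and in the 3-group model.

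Cyp17a1, the steroid 17-hydroxylase and lyase, was lower in 9 of 10 animals. Its log2 ratios were -0.68, -0.25, 0.17, -0.68 and -0.24 in the adefovir animals and -0.86, -0.29, -0.08, -0.94 and -0.74 in the tenofovir animals. The 3 lowest animals had received tenofovir, and the only one above 0 was an adefovir animal. The pooled ratio fell by 0.46 (SD 0.371, n = 10, 95% interval -0.69 to -0.23, limma adjusted p = 0.0116), or 1.38-fold lower. It missed the threshold in the authors' series table, where 8 animals had both values (-0.26, limma adjusted p = 0.372), and by the exact sign-flip test (adjusted p = 0.0586). Among 7 measured genes of steroid synthesis, Cyp17a1 was the only one lower and none was higher, beside 6.67% and 5% of all probes. Of these 7, 1 was above background on most arrays, Cyp17a1 itself.

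A pair of Cyp2a genes was higher. Cyp2a4, a testosterone hydroxylase, had log2 ratios of 0.07, 0.07, 0.37, 0.39 and 0.40 in the adefovir animals and 0.60, 0.11, 0.38, 0.34 and 0.42 in the tenofovir animals. All 10 animals were above 0, with 3 of them close to it. The pooled ratio was 0.32 (SD 0.175, n = 10, 95% interval 0.20 to 0.43, limma adjusted p = 0.00341), or 1.24-fold higher. Cyp2a12, another steroid hydroxylase, ranged from 0.01 to 0.33 with a median of 0.18, and its pooled ratio was 0.18 (SD 0.105, n = 10, limma adjusted p = 0.00824), or 1.13-fold higher. Both genes were above background on all 20 arrays in both channels. Both calls were lost with centring on the median of all gene spots or on the reference genes, and in the authors' series table, and that of Cyp2a12 with background subtraction. The dyes disagreed, since Cyp2a4 had 0.58 with treated RNA in Cy3 and 0.055 in Cy5 (limma adjusted p = 0.498), and Cyp2a12 had 0.048 in Cy3 (limma adjusted p = 0.39) and 0.31 in Cy5. The Cyp2a5 transcript is nearly identical to that of Cyp2a4, and the probe may not tell them apart.

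Most P450 genes gave no call. Of the 32 measured genes in the P450 list, 4 were lower, 2 were higher and 26 did not pass, beside 6.67% lower and 5% higher of all probes. The list median was -0.03 against 0.01 for all probes. Cyp2b10, the main target of the receptor CAR (Nr1i3), ranged from -0.22 to 0.19 over the 10 animals, with a pooled ratio of -0.03 (95% interval -0.13 to 0.07, limma adjusted p = 0.68). Cyp2e1, the ethanol-oxidising enzyme, ranged from -0.30 to 0.33 with a pooled ratio of 0.06 (95% interval -0.06 to 0.19, limma adjusted p = 0.467). Both were above background on all 20 arrays. Of 11 measured CAR and PXR target genes, 0 were lower and 1 was higher, Cyp2a4, beside the same 6.67% and 5% of all probes. Alas1, the rate-limiting enzyme of heme synthesis, ranged from -0.34 to 0.61 with a pooled ratio of 0.04 (95% interval -0.16 to 0.24). Abcc2, the pump for conjugated bilirubin, had a pooled ratio of 0.13 and Abcb1a, a P-glycoprotein drug pump, -0.12, and neither passed.

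Genes of cholesterol synthesis and its acetate supply lay mostly below the saline pool, in 8 of the 10 animals. Of 19 measured, 3 were lower (Acss2, Fdps and Dhcr7), 0 were higher and 16 did not pass, with 8 at an unadjusted p under 0.05; of all 120 probes 6.67% were lower and 5% higher. The list median was -0.12, against 0.01 for all probes. The pooled ratio was negative for 16 of the 19 genes and below the median of all probes for 16. With centring on the calibration or luciferase spots, which moved the median of all probes to 0.24 and 0.20, the list median was 0.07 and 0.03, the calls were 1 lower and 2 higher, and 3 lower and 2 higher, and 17 of 19 genes lay below the median of all probes in each. Of all 120 probes, 3 were called lower and 54 higher with calibration centring, and 6 lower and 57 higher with luciferase centring. Cyp51, Mvd and Msmo1, which passed in some alternatives only, had pooled ratios of -0.32, -0.22 and -0.41.

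The animals were not alike in this group. Of its 16 named genes, adefovir animals 1 and 3 had 14 and 15 above 0, whereas the other 8 animals had 1 to 4 above 0. The median over the 16 genes was 0.15 in each of those 2 animals and -0.41 to -0.09 in the other 8.

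Acss2, which makes acetyl-CoA from acetate, had log2 ratios of 0.05, -1.21, 0.12, -0.36 and -0.53 in the adefovir animals. In the tenofovir animals they were -0.72, -1.10, -0.68, -0.77 and -0.42. Adefovir animals 1 and 3 stood slightly above 0, and the other 8 animals below it. The pooled ratio fell by 0.56 (SD 0.435, n = 10, 95% interval -0.83 to -0.30, limma adjusted p = 0.0116), or 1.48-fold lower. The 2 dye orientations differed, with -0.87 when treated RNA was in Cy3 (limma adjusted p = 0.00127) and -0.25 when it was in Cy5 (limma adjusted p = 0.0938). By the exact sign-flip test its adjusted p was 0.067, whereas the authors' series table gave -0.56 (limma adjusted p = 0.00262), the only probe called there.

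Fdps, the synthase of farnesyl diphosphate, had the same pair of animals above 0. Its log2 ratios were 0.36, -0.86, 0.29, -0.54 and -0.76 in the adefovir animals and -0.36, -0.55, -0.51, -0.58 and -0.44 in the tenofovir animals. Those were again adefovir animals 1 and 3, and the tenofovir animals lay close together. The pooled ratio fell by 0.39 (SD 0.407, n = 10, 95% interval -0.64 to -0.15, limma adjusted p = 0.0411), or 1.31-fold lower. This call held in 2 of the 10 fits that leave out 1 animal, those without adefovir animal 1 or 3. The limma adjusted p reached 0.0994 in the other 8.

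Dhcr7, which completes cholesterol synthesis by reducing 7-dehydrocholesterol, passed with a smaller ratio of -0.12 (SD 0.0811, n = 10, limma adjusted p = 0.0175). It was lower in 9 of 10 animals, ranging from -0.21 to 0.01. Each channel was above background on 5 of 20 arrays, and the sign turned with centring on the calibration spots (0.17) or the luciferase spots (0.12). The call held under 5 of 15 alternatives, and was lost with either dye alone, the exact sign-flip test and every other background handling or scaling, and without adefovir animal 2 or tenofovir animal 2. Msmo1, a sterol C4-methyl oxidase, showed the widest spread of the named genes. It ranged from -1.11 in tenofovir animal 1 to 1.02 in adefovir animal 3 (SD 0.663, limma adjusted p = 0.155), and was above background on all 20 arrays. Cyp51, the lanosterol demethylase (SD 0.404, limma adjusted p = 0.0893), and Mvd, the mevalonate diphosphate decarboxylase (SD 0.237, limma adjusted p = 0.055), were also negative in all animals but adefovir 1 and 3.

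**Figure D2:**
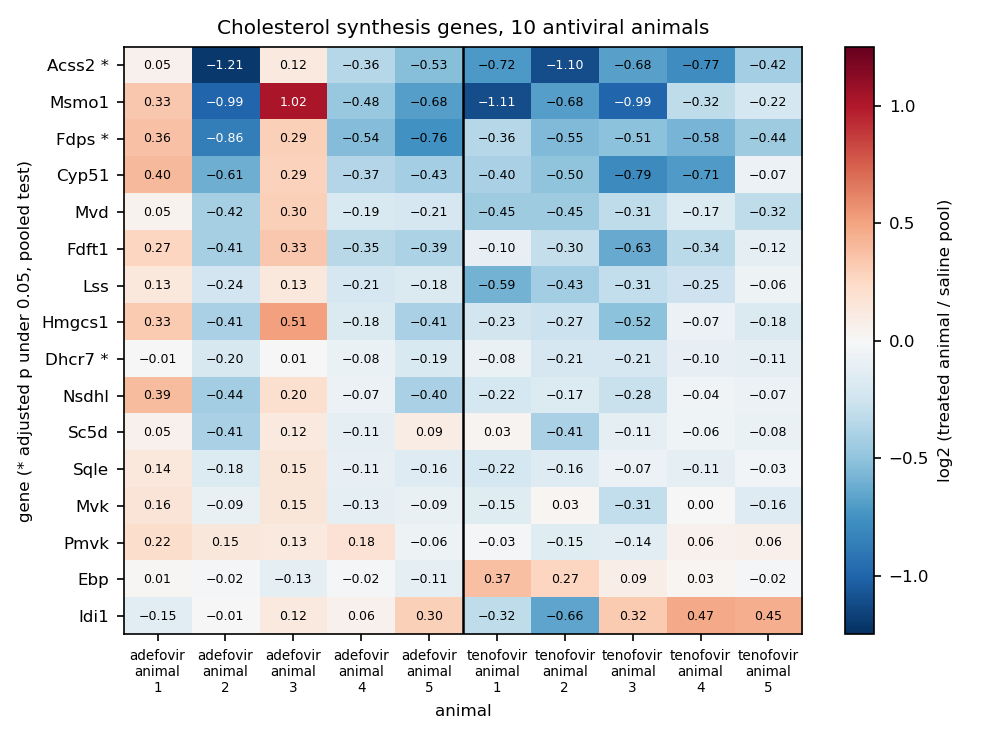
Log2 ratio of treated animal over saline pool for the 16 named genes of cholesterol synthesis and acetate supply (rows, ordered by pooled ratio) in the 5 adefovir and 5 tenofovir animals (columns); asterisks mark the 3 genes past the pooled test. Adefovir animals 1 and 3 are above 0 for 14 and 15 of the 16 genes, for example 0.33 and 1.02 for Msmo1, where the other 8 animals are negative.

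Acss2 was set against the other 15 named genes of this group and against Cyp26a1, Cyp17a1 and Cyp1a2 across the 10 animals, 18 relations in all. Pearson's r was 0.74 to 0.86 for 11 of the 15 (permutation test, adjusted p = 0.0155 to 0.0292), among them Fdps, Cyp51, Msmo1, Mvd and the squalene epoxidase Sqle. It was -0.48 for Ebp, 0.25 for Idi1, 0.44 for Mvk and 0.51 for Pmvk, with no adjusted p under 0.05. By Spearman's rho none of the 15 passed (rho 0.53 to 0.79 for the 11, permutation adjusted p = 0.0643 to 0.185). Without adefovir animals 1 and 3, the 2 farthest from the median of Acss2, r was 0.17 to 0.77 for the 11, and 1 of them, Sc5d, had an exact permutation p under 0.05 (0.0492, not adjusted). For the other 10, r was then 0.17 to 0.64 and did not pass. With fewer animals and a shorter range of Acss2, a missed threshold does not show that the relation rests on those 2 animals. With Cyp26a1, Cyp17a1 and Cyp1a2, the r of Acss2 was 0.19, 0.08 and 0.12 (permutation adjusted p = 0.667, 0.833 and 0.804). All these values share the arrays, their normalization and the saline pool, and Acss2 was chosen after its values were seen.

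Scap, which escorts the sterol-sensing transcription factors, was higher. Its log2 ratios were 0.37, 0.33, 0.04, 0.26 and 0.21 in the adefovir animals and 0.22, 0.06, 0.00, 0.18 and 0.06 in the tenofovir animals. All were above 0, and 4 of the 5 highest were from adefovir animals. The pooled ratio was 0.17 (SD 0.127, n = 10, 95% interval 0.08 to 0.26, limma adjusted p = 0.0116), or 1.13-fold higher. With treated RNA in Cy3 alone the ratio was -0.071 (limma adjusted p = 0.361), so the sign rests on the Cy5 arrays, and the call was also lost with median centring (limma adjusted p = 0.0787), on the reference genes (0.248) and in the authors' series table (0.177). Soat1, which esterifies cholesterol, also passed (0.13, limma adjusted p = 0.03), but it was not well above background in either channel on any array, and it was -0.23 with treated RNA in Cy3 alone (limma adjusted p = 0.02). Of 8 measured genes of sterol regulation and lipoproteins, 0 were lower and 2 were higher, beside 6.67% and 5% of all probes. The list median was 0.09, which was -0.11 with treated RNA in Cy3 alone. Apoa1, the main protein of HDL, ranged from -0.25 to 0.64 (pooled 0.22, limma adjusted p = 0.132).

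The list of 13 transporters leaves out the measured carrier Slco1a5. Of the 13, 1 was lower and 1 was higher, close to the 6.67% and 5% of all probes. Abcg8, a partner of Abcg5 in the pump that moves sterols into bile, had log2 ratios of 0.20, 0.14, -0.01, 0.19 and 0.22 in the adefovir animals and 0.30, 0.24, 0.42, 0.12 and 0.09 in the tenofovir animals. In 9 of 10 animals it was above 0, and the other lay just below it. The pooled ratio was 0.19 (SD 0.118, n = 10, 95% interval 0.11 to 0.27, limma adjusted p = 0.00824), or 1.14-fold higher. The call was lost with centring on Actb, Gapdh and Ppia, with treated RNA in Cy5 alone, in the authors' series table and by the exact sign-flip test, at values of 0.10 to 0.41 over all 17 alternatives. Abcg5, named after its values were seen because the pair works as a dimer, had 0.10 and was above 0 in 9 of 10 animals (limma adjusted p = 0.113). Slc10a1, the sodium-dependent carrier that takes up bile acids and, in humans, hepatitis B virus, ranged from -0.26 to 0.04 with a median of -0.14. Its pooled ratio was -0.15 (SD 0.0871, n = 10, 95% interval -0.21 to -0.08, limma adjusted p = 0.0104), or 1.11-fold lower, and 9 of 10 animals were below 0. The call was lost under 8 of 17 alternatives, including every other scaling of the arrays.

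Bile acid synthesis gave no call in 7 measured genes by limma, with 1 at an unadjusted p under 0.05 and 0 calls by the exact sign-flip test. All 7 pooled ratios were negative, with a median of -0.08, but the median was 0.14 and 0.10 with centring on the calibration and luciferase spots and 0.03 with treated RNA in Cy3 alone. Cyp8b1, which sets the share of cholic acid, ranged from -1.31 to 0.67 (SD 0.557, limma adjusted p = 0.323). Cyp7a1, the rate-limiting enzyme, had a pooled ratio of -0.02 (95% interval -0.10 to 0.05) and was above background on 5 of 20 treated and 7 of 20 saline channels. Cyp39a1 and Cyp7b1, which hydroxylate oxysterols, had -0.14 and -0.09 and were above background on at most 2 arrays in either channel.

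The list of 28 nuclear receptors and coregulators also gave no call by limma or the exact sign-flip test, with 5 at an unadjusted p under 0.05. It includes the transcription factor Cebpa and leaves out the measured receptors Nr2c1, Nr2e1, Nr2f6 and Esrrb. Of the 28, 10 were above background on most arrays. The pooled ratio was positive for 23 of 28, with a median of 0.04. With centring on the calibration and luciferase spots 22 and 23 of the 28 were called higher, beside 54 and 57 of all 120 probes. The list medians were then 0.31 and 0.27, beside the shifted medians of all probes given above. Ppara, the fatty acid receptor, had the largest ratio of this list. It was 0.02, 0.15, 0.08, 0.31 and 0.44 in the adefovir animals and -0.21, 0.17, 0.31, 0.72 and 0.35 in the tenofovir animals. All animals but tenofovir 1 were above 0. The pooled ratio was 0.23 (SD 0.254, n = 10, 95% interval 0.07 to 0.39, limma adjusted p = 0.055), just outside the threshold, and it passed under 10 of 17 alternatives. No list of its target genes could be set beside it, since 0 of those listed were measured. Hnf4a, a master regulator of hepatocytes, had 0.14 (limma adjusted p = 0.174), Nr1i3 had 0.13 (limma adjusted p = 0.111), and the clock repressor Nr1d2 had 0.14 (limma adjusted p = 0.209).

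**Figure D3:**
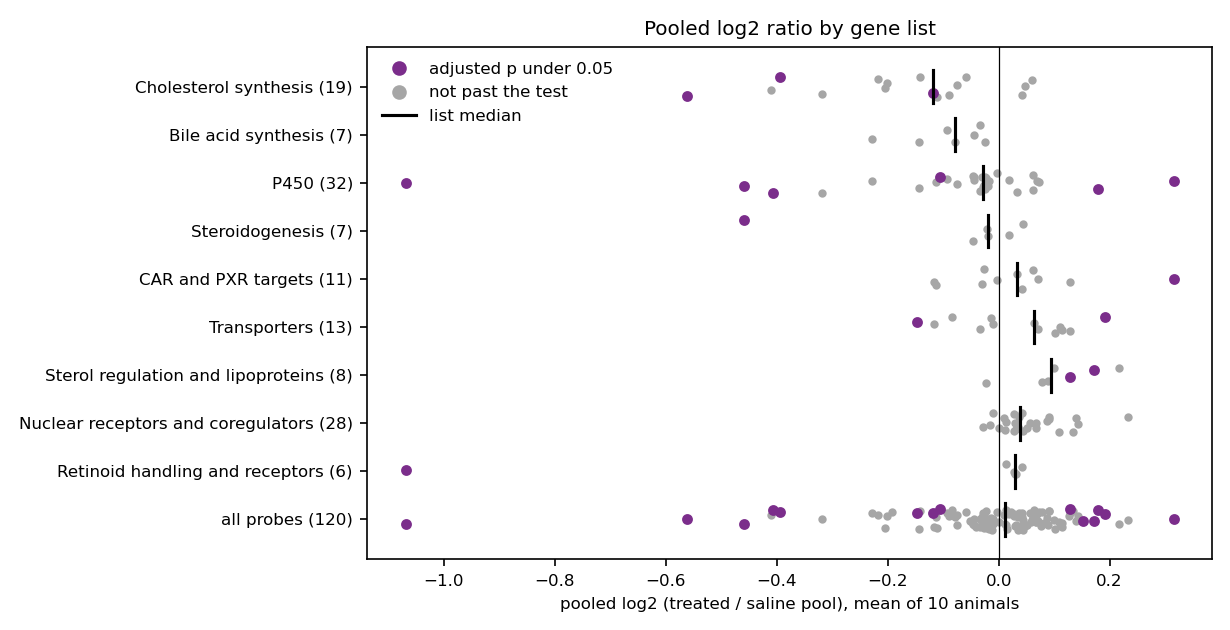
Pooled log2 ratio (mean of 10 antiviral animals over saline pool) of each named gene by list, with the number of measured probes in brackets. The list medians, drawn as black lines, include those unnamed probes that their deposited probe names placed in a list. Such probes are not drawn within lists. The cholesterol synthesis median was -0.12 (0.07 and 0.03 with centring on calibration and luciferase spots), and Cyp26a1 stands at -1.07.

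The probes used elsewhere as references were not all flat. The 3 Gapdh probes disagreed. The brightest of them, above background on all arrays, had a pooled ratio of -0.02 (95% interval -0.12 to 0.08). A dimmer one, above background on 7 treated and 8 saline channels, was called higher at 0.15 (limma adjusted p = 0.0116), and was -0.26 with treated RNA in Cy3 alone. Actb had 0.07 (SD 0.195) and Ppia 0.13 (SD 0.178, limma adjusted p = 0.132).

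Adefovir and tenofovir were then set against each other, the only pair of compounds compared, at matched doses by weight and matched times. Here the saline pool cancels. No probe passed, 0 of 120 (0%), in limma's test of the difference. The smallest adjusted p was 0.676, and 8 probes had an unadjusted p under 0.05. The exact permutation test of 5 against 5 animals gave 0 as well, with 6 probes at an unadjusted p under 0.05. A missed threshold does not show that the drugs act alike. The 95% interval of the difference fell inside a band of 0.5 log2 units either side of 0 for 105 of 120 probes, and inside 1 unit for 118.

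Of the 14 probes past the pooled test, 10 had an interval of the difference within 0.5. These included Cyp26a1, Cyp1a1 and Soat1, whose treated channel was above background on few or no arrays, and genes of small ratio, for which the band is easily met, such as Cyp2a4 (-0.11, 95% interval -0.34 to 0.12), Cyp2a12 (-0.01, -0.17 to 0.15), Abcg8 (-0.08, -0.25 to 0.08) and Slc10a1 (0.03, -0.10 to 0.17). For Cyp2a4, Abcg8, Slc10a1 and Cyp1a1, among others, the interval allows a difference as large as the pooled ratio itself, as do the wider intervals of the other 4. Cyp1a2 averaged -0.59 ± 0.297 after adefovir and -0.22 ± 0.273 after tenofovir (SD, n = 5 each), with a difference of -0.37 (95% interval -0.73 to -0.02, limma adjusted p = 0.676, exact permutation p = 0.0714). Acss2 averaged -0.38 ± 0.536 after adefovir and -0.74 ± 0.245 after tenofovir (SD, n = 5 each), with a difference of 0.35 (95% interval -0.15 to 0.86). Cyp17a1 and Fdps differed by 0.25 (95% interval -0.20 to 0.70) and 0.19 (95% interval -0.32 to 0.70).

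The named probes with the smallest unadjusted p for the difference lay outside the pooled calls, apart from Cyp1a2. Nr5a2, a receptor that drives bile acid genes, averaged -0.13 ± 0.156 after adefovir and 0.11 ± 0.114 after tenofovir (SD, n = 5 each). Its difference was -0.25 (95% interval -0.43 to -0.06, limma adjusted p = 0.676). Ebp, the sterol isomerase, averaged -0.05 ± 0.0618 after adefovir and 0.15 ± 0.166 after tenofovir (SD, n = 5 each), with a difference of -0.20 (95% interval -0.37 to -0.03, limma adjusted p = 0.676). Slco1a5, an organic anion carrier, differed by 0.14 (limma adjusted p = 0.676) but was not well above background on any array. In Cyp8b1, with 0.02 ± 0.49 after adefovir and -0.48 ± 0.551 after tenofovir (SD, n = 5 each), the interval of the difference ran from -0.13 to 1.13.

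**Figure D4:**
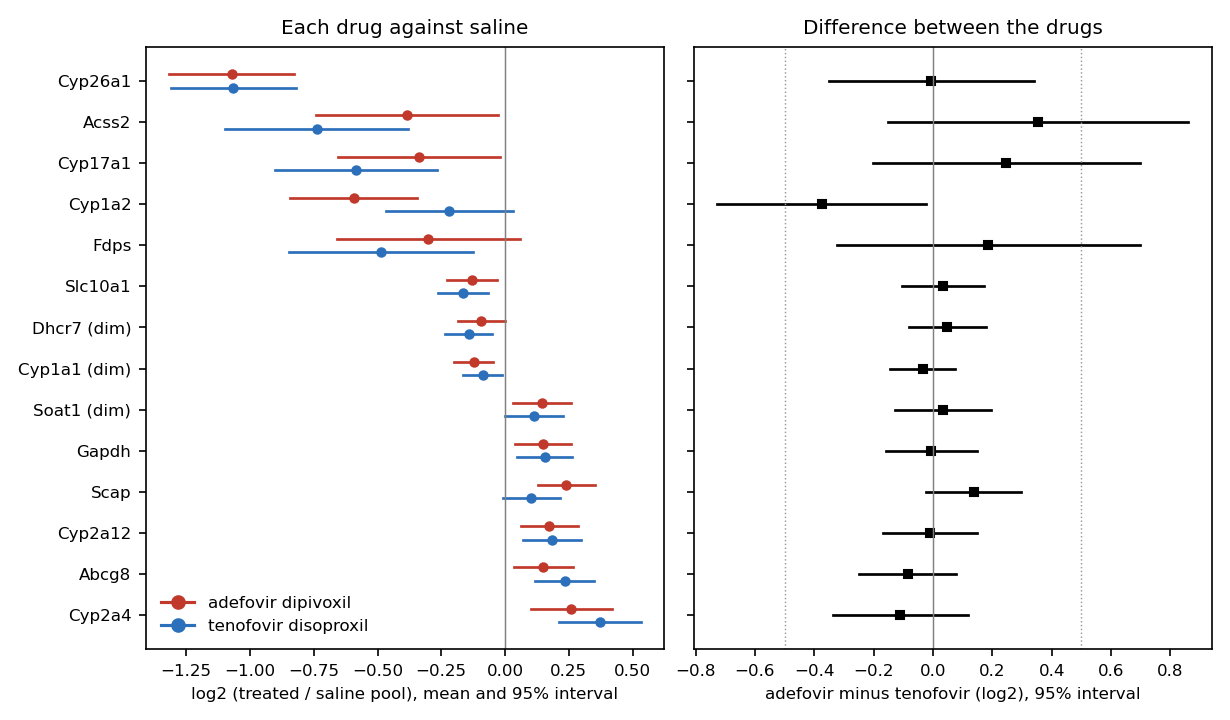
Left, mean log2 ratio over the saline pool with its 95% interval for adefovir dipivoxil (red, upper) and tenofovir disoproxil (blue, lower), 5 animals each, for the 14 probes past the pooled test. Right, adefovir minus tenofovir with its 95% interval, dotted lines marking 0.5 log2 units; 10 of the 14 intervals lie within them, and those of Acss2, Cyp17a1, Cyp1a2 and Fdps do not.

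Against the phenobarbital and β-naphthoflavone animals, the pooled antivirals differed at 44 of 120 probes. They were lower at 24 (20%) and higher at 20 (16.7%), which became 17 and 73 with centring on Actb, Gapdh and Ppia, and 34 and 16 with median centring. On those 4 arrays the headers mark the saline channel as bad, with 9 to 29 probes above background there, and treated RNA was always in Cy3. The mean dye effect of each probe, estimated on the antiviral pairs, was therefore subtracted from the values of these arrays. With Cy3 arrays alone and nothing subtracted, 41 probes differed, 22 lower and 19 higher in the antivirals. Of the 14 pooled calls, 9 also differed from the phenobarbital and β-naphthoflavone animals, 6 lower and 3 higher in the antivirals, and 5 did not pass. Among the 9, the saline channel was above background on 0 of those 4 arrays for Cyp26a1, Cyp1a1, Abcg8, Scap and Dhcr7. It was on 1 for Fdps and Slc10a1, on 3 for Cyp1a2 and on 4 for Cyp2a12. Cyp1a2 showed the widest gap, with -0.41 in the antiviral animals and 2.31 in the phenobarbital and β-naphthoflavone animals, a difference of -2.72 (95% interval -3.08 to -2.36, limma adjusted p = 1.57e-08). Cyp2e1 had 0.06 in the antiviral animals and -1.45 in the phenobarbital and β-naphthoflavone animals, a difference of 1.51 (limma adjusted p = 3.05e-07), and was above background on all 4 arrays in both channels. Fdps had -0.39 in the antiviral animals and 0.58 in the phenobarbital and β-naphthoflavone animals (limma adjusted p = 0.00354), though its saline channel was above background on 1 of 4 arrays. Acss2, Cyp17a1 and Cyp2a4 had differences of -0.05, 0.09 and -0.03 with limma adjusted p of 0.832, 0.707 and 0.89, and the intervals of the first 2 ran from -0.52 to 0.41 and from -0.34 to 0.52. For these 3 genes the saline channel of the phenobarbital and β-naphthoflavone arrays was above background on 1, 0 and 1 of 4 arrays, and for Cyp1a2 on 3 of 4.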

How the data were processed

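The deposited scanner files hold the median intensity of each spot and of its local background for the treated and the saline channel, per the file headers, neither subtracted nor normalized. The authors also deposited a series table of log2 ratios, used as an alternative. Its scale and centring are not given here, its column medians ran from -1.54 to 0.94 over the antiviral arrays, and its columns correlated with the scanner ratios at 0.68 to 0.97. It lacks 53.3% of gene values, so its fit dropped animals and kept 58 probes.

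Every ratio was turned to treated over saline by the dye labels. Background was corrected with normexp (offset 50), arrays were normalized by loess (span 0.3, control spots at weight 0) and the 3 spots of a probe were averaged. A probe was above background where most spots exceeded the local background by 2 of its SDs. The number of arrays limits the precision. The lowest correlation between arrays of one dye orientation was -0.27.

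Tests used limma 3.58.1 in R 4.3.3, with Benjamini-Hochberg adjustment over 120 probes: 1 mean over 10 animals (9 residual degrees of freedom), 2 groups of 5, and 3 groups over 14 animals. Correlations used scipy 1.17.1 with 100000 resamples. The fits were tested on simulated data. Animals and gene lists were chosen with earlier results of these data known. Named genes are all pooled calls, uncalled probes with 1 sign in all 10 animals (there were 0), the 5 smallest p of adefovir minus tenofovir, the 3 largest ratios of each list, and a set taken from those earlier results. Abcg5 and other genes of cholesterol synthesis (Lss, Sqle, Idi1, Mvk and Sc5d) were added after their values were seen. The 4 arrays of pooled phenobarbital animals were not analysed here. Alternatives covered background, scaling, dim probes, single dyes, weights, blocks, the series table, exact tests and single animals left out.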

Additional observations from a re-analysis of the deposited data

Results flagged for a closer look

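Within groups of the named probes, 3 of 132 groups held an animal far from the others, and chance alone sets apart about 1 group in 20. Cyp1a1 had -0.22 in adefovir animal 5, where the other 4 adefovir animals lay between -0.12 and -0.08, and it was not well above background on any array. Nr5a1 had 0.19 in tenofovir animal 2, where the other 9 antiviral animals lay between -0.02 and 0.07, and this probe was above background on 1 of 20 treated channels. The brightest Gapdh probe had 0.36 in tenofovir animal 1, where the other 9 antiviral animals lay between -0.20 and 0.05.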

How the results depend on the processing

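The pooled count of 14 probes (8 lower, 6 higher) was 57 (3 and 54) with centring on calibration spots and 63 (6 and 57) on luciferase spots, which moved the median of all probes from 0.01 to 0.24 and 0.20. It was 4 (4 and 0) with centring on Actb, Gapdh and Ppia, 10 (5 and 5) with median centring, 23 for Cy3 arrays only, 41 for Cy5 arrays only, 32 with array weights, 1 of 58 probes in the authors' series table, and 5 with the exact sign-flip test. Without background correction it was 15 (6 and 9). Leaving out 1 animal gave 11 to 23 probes, with 23 without adefovir animal 3 and 21 without adefovir animal 1. The replicate block gave 18 (8 and 10), 13 of them among the 14. The deviations of animals of the same number correlated at r = -0.21 to 0.27. With so few animals this cannot decide whether the numbers pair them. Adefovir minus tenofovir gave 0 under all alternatives but background subtraction, which called 1 (Nr5a1, lower, a dim probe, limma adjusted p = 0.0277) (0 in each fit without 1 animal). Against phenobarbital and β-naphthoflavone, 44 calls became 90 (17 lower and 73 higher) on the reference genes, 50 (34 and 16) with median centring, 45 with the replicate block and 39 to 51 without single animals. Cyp26a1 passed under all 16 alternatives that gave it a value, at -3.24 to -0.91. Among values called in the pooled test or under the alternative, the sign turned for Cyp11a1 (0.26 and 0.22), Cyp1a1 (0.17 and 0.13) and Dhcr7 (0.17 and 0.12) with calibration or luciferase centring. In Cy3 alone it turned for Pmvk (-0.36), Scap (-0.071), Slco1a5 (-0.14), Soat1 (-0.23) and the Gapdh probe called higher (-0.26), and in Cy5 alone for Ebp (-0.20). Of values called in neither, 45 more turned sign, for 19 genes, at -0.24 (Slc10a2 in Cy3 alone) to 0.24 (Cyp7a1 with calibration centring), beside those without 1 animal. The cause was not tested. The 31 probes above background on no array limit what a narrow interval can show.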
